A study of Rattus norvegicus with 9 samples.

Results

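The transcripts described here are the 100 whose abundance in the left testes of polysaccharide-treated rats stood farthest apart from every other library of the study. Abundances were taken as log2(value + 0.5). Of 19532 transcripts in the table, 18745 averaged 0.5 or more across the 9 libraries. In 690 of these (3.68%) the 3 treated libraries did not overlap the other 6, 331 of them higher (1.77%) and 359 lower (1.92%) under treatment. Which direction held more depended on scaling: it was 367 higher and 323 lower with median-of-ratios scaling, and 375 and 323 with quantile scaling. The gap is the distance, in log2 units, between the treated library nearest to the other 6 and the nearest of those 6. The 100 transcripts with the largest gap are the members, of which 50 were higher and 50 lower in treated testes. Members were chosen by the abundances of all 9 libraries, so the differences between treated and other libraries are given as a description, with no test.

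Testes came from male Sprague Dawley rats, labelled as 6 to 7 weeks old, in 3 groups of 3 libraries. Control rats had a sham operation, all of the surgery but the ligation, and were kept for 12 weeks. VC rats had a varicocele, made by a partial ligation of the left renal vein, and from 8 weeks after surgery received about 2 mL of saline by gavage daily for 4 weeks. VC+MOP rats had the same ligation and received by gavage 300 mg per kg per day of MOP, a polysaccharide extracted from Morinda officinalis root, over the same 4 weeks. The labels list no gavage for Control, so ligation, gavage and polysaccharide cannot be told apart in a comparison with that group. Operated rats without venous dilation, or with a shrunken left kidney, were removed from the study. The labels do not say that each library is a different rat, so the spread between libraries may be technical in part.

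A varicocele is an enlargement of the veins that carry blood from the testis, and it is a common finding in infertile men. In rats, as in men, the left testicular vein empties towards the left renal vein, which is why narrowing the renal vein dilates the testicular veins. Morinda officinalis root is used in traditional medicine for male reproductive complaints. The testis expresses an unusually broad range of genes, many of them as several transcripts that differ in start site, splicing or end, and many long noncoding RNAs. A deposited value belongs to a single transcript, so a difference in it may be in the output of the gene or in the choice among its transcripts, and the values alone cannot tell these apart. Likewise, in whole testis, fewer cells of a type and less RNA per cell cannot be told apart.

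The gene table used here lists no Ensembl identifiers, and 0 of the 19532 identifiers had a gene in it. Transcripts are therefore given by identifier for the 2 members with the largest gap in each direction and by rank for the others. Markers of testis cell types and pathway lists could not be looked up, so the labelled tissue was not checked against its markers, and no sequence is shown. Total abundance per library ranged from 478800 to 486011, and 213 to 258 transcripts per library were listed at 0. Read depth is unknown.

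A handful of members stood far apart and most stood barely apart. The gap exceeded 1 log2 unit in 4 members, 0.5 in 9 and 0.2 in 24, and its median over the 100 was 0.127. The mean difference between VC+MOP and the other 6 libraries, which is larger than the gap, was at least 1 log2 unit either way in 14 members, at least 0.5 in 43 and at least 0.25 in 80. At the edge of the choice, the member ranked 100 had a gap of 0.0878. It stood at 8.58, 8.64 and 8.82 in VC+MOP, with its nearest other library at 8.05. The transcript ranked 101, just outside, had a gap of 0.0871, with 2.25, 3.01 and 2.67 in VC+MOP and 2.09 in the nearest other library.

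The same rule applied to the other groups gives the scale of these gaps. The Control libraries were set apart from the other 6 in 427 transcripts (2.28%) and the VC libraries in 413 (2.2%). The largest gap was 1.12 for Control, 2.99 for VC and 3.57 for VC+MOP. At the rank of 100 the gap was 0.0862, 0.0925 and 0.0878 in that order, and the median of the first 100 was 0.138, 0.176 and 0.127. The number set apart was thus highest for VC+MOP, while its first 100 had the smallest median gap of the 3 groups. No test of these differences was made.

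The member with the largest gap, ENSRNOT00000070986, was low in every library but the treated ones. It stood at 0.848, 0.977 and 1.01 in the Control libraries, at 0.865, 0.905 and 1.25 in VC and at 21.9, 25.6 and 20.3 in VC+MOP. The mean of 22.6 ± 2.75 in VC+MOP (SD, n = 3) was 23.2 times the mean of 0.976 ± 0.147 over the other 6 (SD, n = 6). The lowest treated library was far above the highest of the others, and Control and VC overlapped. Between VC and Control the log2 difference was 0.05 ± 0.13 (SE, limma adjusted p = 1).

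The second, ENSRNOT00000080933, was present at a low level without treatment and reached about the same level as the first with it. Its values were 2.91, 3.01 and 3.39 in Control, 3.01, 3.59 and 4.37 in VC and 22.1, 23.7 and 19 in VC+MOP. The VC+MOP mean of 21.6 ± 2.43 (SD, n = 3) was 6.39 times the mean of 3.38 ± 0.553 over the other 6. In both of these transcripts VC+MOP 2 was the highest library and VC+MOP 3 the lowest of the treated ones, and VC 3 was the highest of the others.

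Among the members that were lower in VC+MOP, ENSRNOT00000090323 had the largest gap. It stood at 62.3, 47.7 and 54.6 in Control, at 41.5, 74.6 and 24.8 in VC and at 2.28, 2.17 and 6.28 in VC+MOP. The mean of the other 6, 50.9 ± 17.2 (SD, n = 6), was 14.2 times the VC+MOP mean of 3.58 ± 2.34 (SD, n = 3). The treated libraries lay below all others, but both sides were spread widely, with VC 3 the lowest of the untreated libraries and VC+MOP 3 the highest of the treated ones.

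ENSRNOT00000013868 was listed at 0 in VC+MOP 1, 2 and 3. In Control it stood at 0.873, 1.07 and 0.914 and in VC at 0.835, 0.801 and 1.31, so it was of low abundance in every library that had a value. No fold is given against values listed at 0, and without read depth a value of 0 sets no upper limit.

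**Figure D1:**
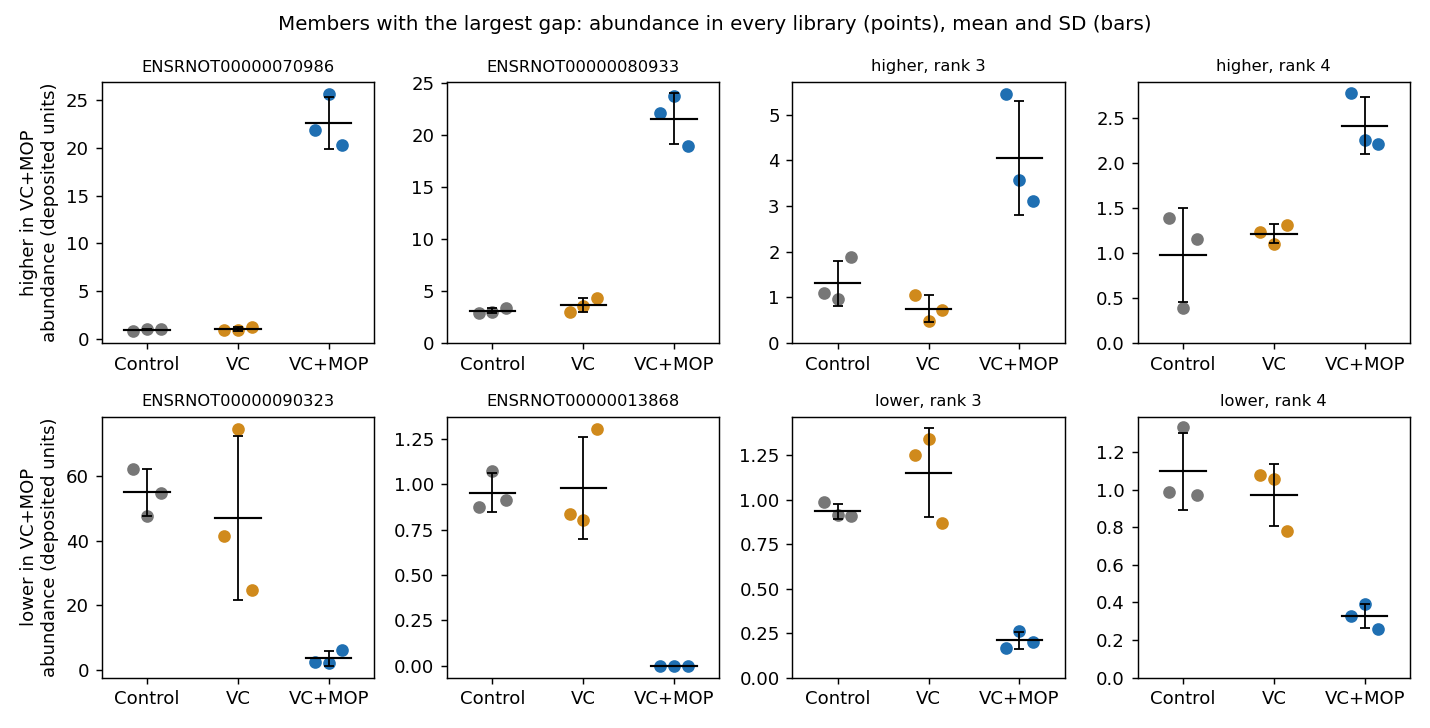
Abundance in deposited units on a linear axis for the 4 members with the largest gap in each direction; points are libraries, long bars the group mean and short bars the SD (n = 3). In all 8 panels the VC+MOP points lie clear of the Control and VC points, most widely in ENSRNOT00000070986, where they stand between 20.3 and 25.6 and the other 6 libraries between 0.848 and 1.25.

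The next members by gap were of low abundance. The higher member ranked 3 stood at 1.09, 0.957 and 1.87 in Control, 1.06, 0.491 and 0.713 in VC and 5.46, 3.57 and 3.11 in VC+MOP, a ratio of means of 3.93. The fourth stood at 0.977 ± 0.519 in Control, 1.21 ± 0.105 in VC and 2.41 ± 0.315 in VC+MOP (SD, n = 3 each), and the fifth at 0.682 ± 0.065, 0.841 ± 0.0314 and 1.43 ± 0.0981. In the fifth the libraries of all 3 groups were separate, with VC between Control and VC+MOP. The sixth was more abundant, at 3.63 ± 0.623, 5.26 ± 1.93 and 10.5 ± 1.92, and VC 3, at 7.44, came nearest to the treated libraries.

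Among the lower members, the third stood at 0.934 ± 0.0429 in Control, 1.15 ± 0.25 in VC and 0.209 ± 0.0478 in VC+MOP (SD, n = 3 each). The fourth stood at 1.1 ± 0.204, 0.973 ± 0.165 and 0.327 ± 0.0656. The fifth was graded over the 3 groups, with no overlap between any of them: 1.07, 2.04 and 2.37 in Control, 0.556, 0.386 and 0.245 in VC, and 0.0107, 0.0131 and 0.021 in VC+MOP. It and ENSRNOT00000013868 were the 2 members below 0.05 in all 3 treated libraries. The sixth stood at 3.38 ± 0.299 in Control, 2.92 ± 0.253 in VC and 1.2 ± 0.569 in VC+MOP.

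Some members with a small mean difference were tightly replicated. A small difference can pass the rule only where libraries lie close together, so the rule chose for this. The eighth of the lower members stood at 1.99, 1.94 and 1.94 in Control, 1.95, 1.83 and 1.87 in VC and 1.33, 1.31 and 1.39 in VC+MOP. The ninth stood at 6.53 ± 0.212, 6.69 ± 0.338 and 4.88 ± 0.314 in these groups in that order (SD, n = 3 each). In both, the treated mean was below the others by less than 0.5 on the log2 scale (differences of -0.39 and -0.40), yet the gap was larger than the range among the treated libraries. The tenth of the higher members was of this kind too, at 5.13 ± 0.248, 5.02 ± 0.263 and 6.48 ± 0.25.

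Abundance differed widely among the members. The mean over the 9 libraries ran from 0.549 to 1320 among the higher members, with a median of 3.54. Among the lower it ran from 0.526 to 753, with a median of 3.28, and the median over the 18745 transcripts was 6.03. By mean abundance, 19 members lay in the class of 0.5 to 1 and 38 in that of 1 to 5. Another 26 lay in the class of 5 to 20, 12 in that of 20 to 100, and 5 were more abundant still. The members made up 0.792%, 0.609%, 0.484%, 0.319% and 0.512% of the transcripts in these 5 classes. The median absolute log2 difference between VC+MOP and the other 6 was 0.73, 0.58, 0.33, 0.26 and 0.31 in the same order. The rule works on the log scale, so these shares and differences are a description of what it chose. On the side where they were low, 5 of the higher and 10 of the lower members had a mean below 0.5 and passed the filter through their other side.

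The 5 most abundant members differed by modest amounts. The most abundant was higher in VC+MOP, at 1408, 1534 and 1639, against 1300, 1176 and 1207 in Control and 1207, 1261 and 1187 in VC, a ratio of means of 1.25. The next was lower, at 701, 706 and 701 in VC+MOP against 757, 803 and 777 in Control and 787, 775 and 774 in VC. Its treated libraries lay closer together than its Control libraries, and its VC+MOP mean was 0.902 of the mean of the other 6. Another, also lower, stood at 85.7 ± 5.64 in VC+MOP against 145 ± 34.5 in Control and 143 ± 53.1 in VC (SD, n = 3 each), with the spread on the untreated side. The remaining pair was higher in VC+MOP: 118 ± 0.895 against 93.4 ± 6.27 and 97.3 ± 6.88, and 122 ± 6.24 against 101 ± 9.74 and 107 ± 2.45. Summed over the 50 higher members, abundance was between 2180 and 2400 in the VC+MOP libraries and between 1740 and 1860 in the other 6. Over the 50 lower members it was between 1040 and 1060 in VC+MOP and between 1230 and 1360 in the others. The most abundant member of each direction, described above, made up most of these sums.

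**Figure D2:**
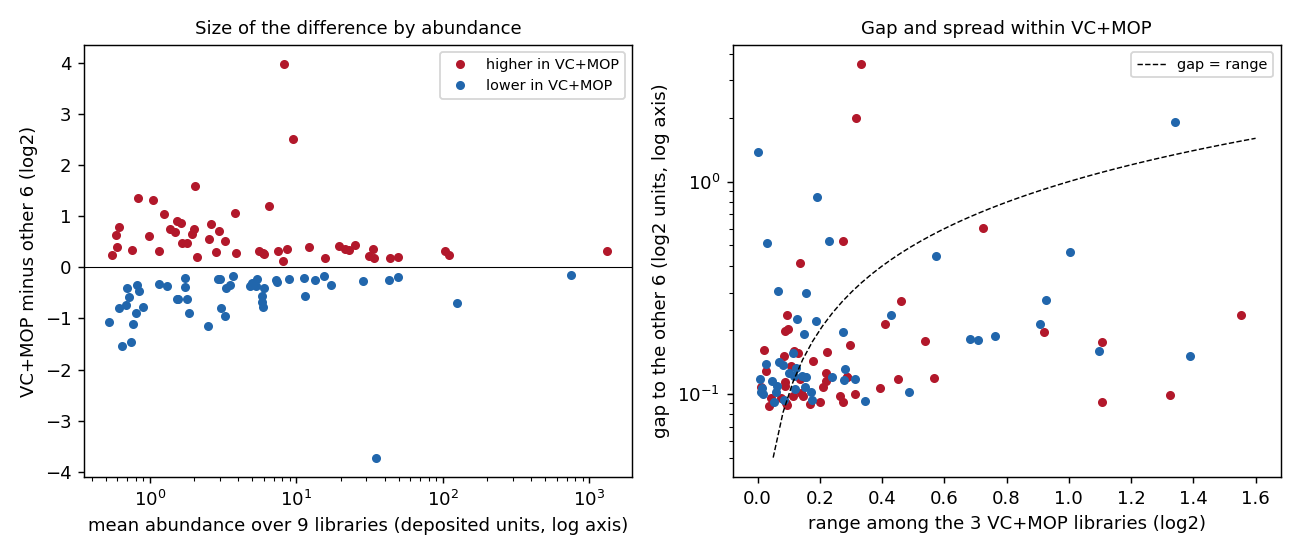
Left, log2 difference between the mean of VC+MOP and the mean of the other 6 libraries against mean abundance (log axis) for the 100 members; right, gap (log axis) against the range among the 3 VC+MOP libraries, with the dashed line where they are equal. The 3 largest differences stand apart on the left, and on the right 55 of 100 members lie below the line, where the treated libraries differ among themselves by more than their gap to the others.

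The treated libraries varied among themselves in some members. The range among the 3 VC+MOP libraries had a median of 0.205 log2 units in the higher and 0.153 in the lower members, against 0.244 over all transcripts tested. The gap starts from the nearest treated library, so the rule itself favours a narrow range, and nothing is read from these medians. The range was wider than the gap in 31 of the higher and 24 of the lower members. In 8 members, 4 in each direction, the range was over 1 log2 unit. This range is on log2(value + 0.5), so at low abundance it is smaller than the fold between the deposited values. The seventh of the lower members, at 0.0143, 0.0109 and 0.2605 in VC+MOP, had a range of 0.574 and is not among the 8. The eighth of the higher members stood at 2.63 and 2.31 in VC+MOP 1 and 3 and at 0.567 in VC+MOP 2, with the other 6 libraries between 0.241 and 0.407. The lower member ranked 22 stood at 1.84 in VC+MOP 1 and at 5.64 and 4.77 in VC+MOP 2 and 3, with the others between 6.32 and 7.66. In each of these a single treated library lay close to the untreated range or far from its fellows.

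Counting which treated library came nearest to the other 6 showed an uneven share in the lower members. It was VC+MOP 2 in 28 of the 50 lower members, VC+MOP 3 in 14 and VC+MOP 1 in 8. In the 50 higher members it was VC+MOP 1 in 20, VC+MOP 2 in 16 and VC+MOP 3 in 14. On the untreated side VC 3 was the nearest library in 31 of the 100 members, and each other library in between 11 and 18. Without VC 3, 604 transcripts would be set apart higher and 604 lower, against 331 and 359 with it. A gap can only grow when a library is left out, so such counts rise by construction.

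VC against Control is the comparison whose direction the rule did not fix, although it keeps these 6 libraries on the same side of the treated ones. Of 18745 transcripts 3 differed (0.016%; limma, adjusted p below 0.05), and 0 of the 100 members were among them. At an unadjusted p below 0.05 (limma) stood 7 members, 2 higher and 5 lower in VC+MOP, beside 4.37% of all transcripts. The median absolute log2 difference between VC and Control was 0.078 in the members and 0.082 over all transcripts. With its sign, the median was 0.06 in the members higher in VC+MOP and -0.01 in those that were lower, beside -0.0006 over all. VC was above Control in 32 of the 50 higher and 22 of the 50 lower members, beside 49.8% of all transcripts, and the VC and Control libraries belong to both differences.

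The VC and Control libraries did not overlap in 9 members, beside 9.47% of all transcripts, so the members' share was close to the background. VC was higher in 5 of them (4.55% of all transcripts) and lower in 4 (4.92%). The fifth of the lower members, graded from Control to VC+MOP, had the smallest p for VC against Control, a log2 difference of -1.34 ± 0.24 (SE, limma adjusted p = 0.674). Its 3 VC libraries were all below its 3 Control libraries. The lower member ranked 25 was graded in the same order at a higher level, with 5.61, 6.25 and 5.49 in Control, 4.65, 4.52 and 4.88 in VC and 3.82, 4.06 and 3.98 in VC+MOP. Its VC minus Control difference was -0.28 ± 0.08 on the log2 scale (SE, limma adjusted p = 1). The eleventh of the lower members went the other way, at 0.872 ± 0.101 in Control, 1.38 ± 0.215 in VC and 0.437 ± 0.138 in VC+MOP (SD, n = 3 each), with VC above Control in every library. Among the higher members, that ranked 31 stood at 29, 27.8 and 29.1 in Control, 30.6, 30 and 30.3 in VC and 34.4, 35.2 and 33.1 in VC+MOP.

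**Figure D3:**
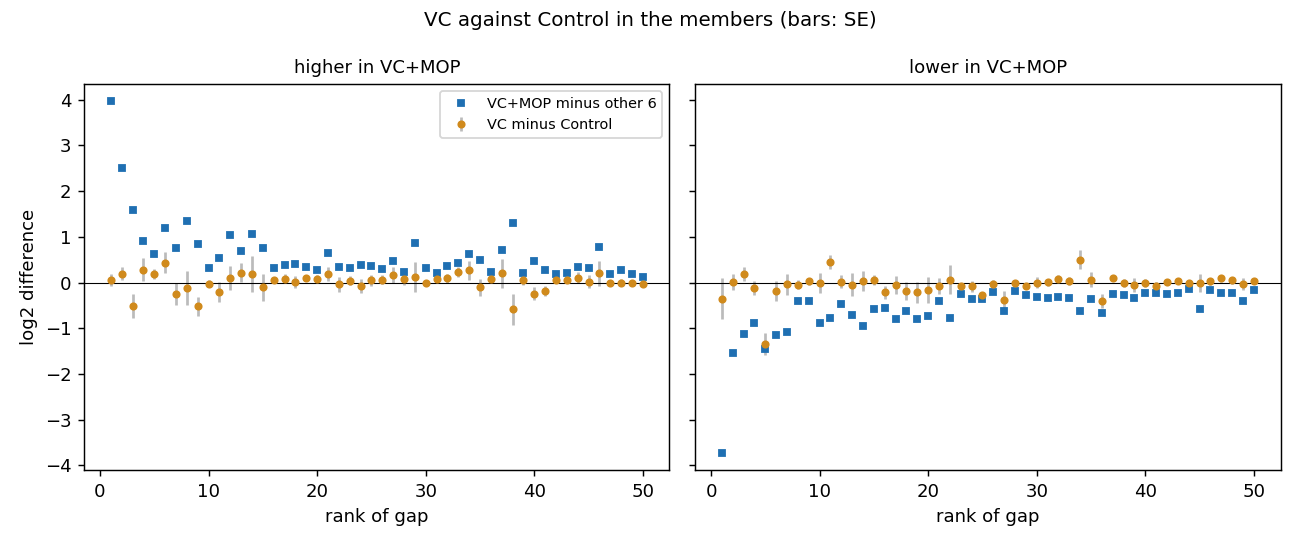
Log2 difference of VC minus Control (circles, with the limma SE as bars) and of VC+MOP minus the other 6 libraries (squares) for the 50 higher and the 50 lower members, by rank of gap. The circles lie near 0 in most members, and the lowest is at -1.34, in the fifth of the lower members.

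A large mean difference seldom came with separation in these data. Over all transcripts tested, 239 had VC+MOP and the mean of the other 6 at least 1 log2 unit apart. The libraries did not overlap in 28 of the 239, beside 690 of all 18745 transcripts (3.68%). Of the 28, 14 were members. Both the difference and the separation come from the values that the rule used, so these counts are a description.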

How the data were processed

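RNA of the left testis was sequenced in 9 libraries on an Illumina HiSeq instrument. Library preparation, per the labels' protocols, fragmented total RNA and used random primers and a dUTP-marked second strand, so strand was kept. The authors deposited a linear abundance signal per transcript. Per the file headers, each column is 1 library, and no unit is named, so FPKM and TPM cannot be told apart. HISAT2 2.0.5, StringTie 1.3.1c, cutadapt and the human build hg19 are named in the submitters' processing notes, without roles, while the table carries rat Ensembl transcript identifiers. Neither the labels nor the file header state the rat annotation.

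Values were taken as log2(value + 0.5), unscaled, for the 18745 transcripts averaging 0.5 or more across the 9 libraries (787 were left out). The added 0.5 makes log2 differences and gaps of rare transcripts smaller. Ratios of means were taken from the deposited values, with nothing added. limma 3.58.1 in R 4.3.3 fitted all 9 libraries with the group as the only term, 6 residual degrees of freedom and a variance trend. Tests were two-sided, with Benjamini-Hochberg adjustment over all 18745 transcripts and a threshold of 0.05. Values are not counts, so no count model was used, and depth is unknown. The transcripts named are the 2 with the largest gap in each direction. The members, the rule and the tests were chosen with earlier results of these data known. Gene lists for testis cell types and pathways were not used, because no identifier could be paired with a gene. The labels name no batch. Alternatives were pseudocounts of 0.1 and 1, other filters, 2 scalings, other fits and each library left out. Figures were drawn with matplotlib 3.10.9.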

Additional observations from a re-analysis of the deposited data

How the results depend on the processing

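A pseudocount cannot change which libraries overlap, only the size of a gap: with 0.1 and 1, 88 and 96 members were again among the first 100. With median-of-ratios scaling all 100 members stayed set apart and 92 were again among the first 100, and with quantile scaling 99 and 82. With a mean of at least 1 as the filter 81 members were tested, and with no filter 85 of the 100 were again among the first 100. None of the 100 changed direction under any setting run (0 of those tested). Only the 2 scalings could have changed a direction, since pseudocounts, filters and left-out libraries keep the members set apart. With 1 VC+MOP library left out, 24 to 30 members were again among the first 100, and with 1 Control or VC library left out, 55 to 61. All members tested (99 or 100) stayed set apart in each of these runs, which is also by construction and no sign of stability. Other transcripts gain gap when a library is left out, so members can lose rank by construction. The count of transcripts set apart ran from 406 to 935 higher and from 449 to 1089 lower over the 9 libraries left out, against 331 and 359, and it passed 1.5 times these without VC+MOP 1, 2 or 3, without VC 3 and, for the lower, without Control 3; a gap cannot shrink when a library is left out. Of 52 refitted differences of the 4 named transcripts 48 moved by less than the SD within groups. The other 4 came from the pseudocount: ENSRNOT00000070986 stood at 4.40 and 3.57 log2 units with 0.1 and 1, against 3.97, and ENSRNOT00000013868 at -3.40 and -0.97, against -1.54.

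VC against Control gave 3 calls over all transcripts (limma), 7 with the 2 groups alone and 2 to 11 without single libraries (11 without VC 3), and no setting called a member. VC+MOP against VC gave 3, then 5 with the 2 groups alone and 3 to 13 without single libraries (13 without VC+MOP 3). VC+MOP against Control gave 7, then 9 with the 2 groups alone, 8 with no filter, 6 with a pseudocount of 0.1 and 5 with median-of-ratios scaling. It gave 4 with a pseudocount of 1, a mean of at least 1, quantile scaling or robust variances. Without single libraries it gave 6 to 16 (16 without VC+MOP 3). With the replicate number as a block, 1, 3 and 4 transcripts were called in the 3 comparisons. The numbers did not pair the libraries: same-numbered deviations correlated between -0.07 and 0.04, and 3 of 9 libraries were closest to their own number. The cause of these shifts was not tested. Read depth, which would set the precision of the low-abundance members, is unknown.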

Other observations

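Beyond the 100 members, the share of transcripts set apart under treatment differed by abundance class, and is given here as values with no test. Of the 977 transcripts averaging 100 or more, 81 (8.29%) had VC+MOP libraries that did not overlap the other 6, 40 of them higher and 41 lower. The same rule set the Control libraries apart in 20 of them (2.05%), 1 higher and 19 lower, and the VC libraries in 21 (2.15%), 16 higher and 5 lower. From 20 to 100 the counts were 170 (4.52%) for VC+MOP, 65 (1.73%) for Control and 55 (1.46%) for VC, out of 3762. Among transcripts from 0.5 to 1 the 3 groups stood close together, at 2.59%, 2.34% and 2.54%. In an alternative added after the data were examined, the share at 100 or more was 7.06% for VC+MOP with median-of-ratios scaling and 7.88% with quantile scaling. Control stood at 2.25% and 1.74% under these, and VC at 1.54% under both. Transcripts are not independent replicates, so no p is given, and whether a shared technical feature of the 3 VC+MOP libraries goes with this was not tested.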
